A study of Mus musculus with 2 samples.

Results

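The 8 genes of cholesterol synthesis and its control, Srebf2, Insig1, Hmgcs1, Idi1, Fdps, Fdft1, Sqle and Msmo1, were read by symbol in the gene list of 2 single-cell RNA libraries of mouse ileum T cells. They are 8 of the 55357 genes listed, and all 8 were among the 5635 genes that passed a limit on low values (at least 20 CPM, counts per 1e+06 UMIs, in 1 library and 50 UMIs over both). None of the 8 is itself an uptake gene, so genes of sterol uptake and transport were read beside them from a separate list.

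The study exposed dendritic cells, which present antigen to T cells, to phages (viruses of bacteria) taken from SAP mice or from healthy mice. They were then cultured together with T cells from the gut of GF mice, and FucoID, a tagging method, put fucosyl-biotin on T cells that a dendritic cell had touched. A single library is titled SAP and a single library is titled Control. The labels spell out neither SAP nor GF, and do not say that Control stands for healthy-mouse phages, whether the sequenced cells were the tagged fraction, or how many mice were pooled. The sources used here do not give strain or age.

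SREBP2, the transcription factor encoded by Srebf2, sits in the membrane of the endoplasmic reticulum and is carried to the Golgi, cleaved and sent to the nucleus when membrane sterol is low. There it switches on the enzymes of the mevalonate and sterol pathway and genes of cholesterol uptake. Dividing cells, T cells included, need cholesterol for new membrane.

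The SAP library held 5203 barcodes and 19144320 UMIs (unique molecular identifiers, 1 per captured RNA molecule), and the Control library held 5737 barcodes and 19142384 UMIs. After filters, 4685 SAP cells and 5293 Control cells had at least 2 UMIs over 11 T cell genes and are called T cells here, which is 97.1% of the SAP and 97.9% of the Control cells kept. Their median depth was 3420 UMIs in SAP cells and 3134 UMIs in Control cells, and the median share of mitochondrial UMIs was 1.48% in SAP cells and 1.18% in Control cells. The summed B and plasma cell genes stood at 104 CPM in SAP T cells and at 913 CPM in Control T cells, with 0 of their 9 genes at 0 in either library. A single Control cell held 49.1% of the Control UMIs of these genes. The summed epithelial genes stood at 239 CPM in SAP and 204 CPM in Control, again with 0 of 11 at 0. Dendritic cell and macrophage genes stood at 76.9 CPM in SAP and 83.4 CPM in Control, with 5 of 13 at 0 in SAP and 4 in Control. The libraries shared 6 barcodes. With 1 library per group there was no test and no p-value, and every bracket below is an exact 95% interval that covers counting error only, not the spread between cells, mice or libraries.

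Promoter sequence is shown first for the genes in which the letters of a sterol element or a CCAAT box could be seen upstream of the annotated start, since these are the motifs known to be read by SREBP2 and by NF-Y, which binds beside it. RefSeq promoters (GRCm38.p6) were held for 5 of the 8 genes, Srebf2, Insig1, Hmgcs1, Idi1 and Msmo1. Capitals mark TCACNCCA, the short form of the sterol element, with its long form TCACNCCAC where it is complete, and CCAAT on either strand (ATTGG on the strand shown).

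Srebf2 (chr15:82147019-82147180, plus strand): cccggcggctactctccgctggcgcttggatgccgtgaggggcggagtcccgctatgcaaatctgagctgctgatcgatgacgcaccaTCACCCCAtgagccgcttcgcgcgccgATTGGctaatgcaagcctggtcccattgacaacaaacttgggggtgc

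Insig1 (chr5:28071162-28071362, plus strand): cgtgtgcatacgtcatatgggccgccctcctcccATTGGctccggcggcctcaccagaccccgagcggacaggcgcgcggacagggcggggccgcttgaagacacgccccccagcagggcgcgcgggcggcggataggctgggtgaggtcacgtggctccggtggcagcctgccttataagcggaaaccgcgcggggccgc

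Hmgcs1 (chr13:119690101-119690350, plus strand): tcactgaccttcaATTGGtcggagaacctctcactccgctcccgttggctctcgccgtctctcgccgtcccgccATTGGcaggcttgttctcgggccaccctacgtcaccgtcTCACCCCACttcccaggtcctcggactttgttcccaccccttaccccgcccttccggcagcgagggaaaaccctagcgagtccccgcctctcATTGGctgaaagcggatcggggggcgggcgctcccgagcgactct

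Msmo1 (chr8:64733742-64733771, minus strand): gcgggtctcactattcTCACTCCAtccgcg

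TCACNCCA occurred within 250 bases before the RefSeq start in 3 of the 5 promoters, at 162 bases in Srebf2, 137 bases in Hmgcs1 and 177 bases in Msmo1, and in 3.67% of the 32851 promoters of the table. The long form TCACNCCAC, which contains the short one, was found in Hmgcs1 and in 1.05% of all promoters. CCAAT was found in all 5 promoters and in 33.8% of all, and the GC box GGGCGG in all 5 and in 32.7% of all. The E-box CACGTG was found in Insig1 and in 6.02% of all. Both strands were searched for each motif. The Msmo1 stretch lies upstream of the RefSeq start but inside the gene as GENCODE places it, so only 30 bases are shown. These are matches of letters and were not tested for binding.

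Srebf2 and Insig1, the regulators, had the highest levels of the 8 genes. Levels are given in CPM of the T cells. The 3′ kit counts each captured molecule once, so gene length does not enter, but the share of molecules captured can differ between genes. Srebf2 (chr15:82147181-82205379, plus strand, GRCm38) stood at 158 CPM (2737 UMIs) in SAP cells and 154 CPM (2709 UMIs) in Control cells. Insig1 (chr5:28071363-28078662, plus strand), whose protein holds SREBP2 in the endoplasmic reticulum when sterol is plentiful, stood at 125 CPM (2163 UMIs) in SAP cells and 127 CPM (2234 UMIs) in Control cells. Both levels were nearly equal in the libraries.

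The 3 enzymes of the mevalonate and isoprenoid steps followed. Hmgcs1 (chr13:119690379-119708260, plus strand) joins acetoacetyl-CoA and acetyl-CoA to make HMG-CoA, and stood at 104 CPM (1799 UMIs) in SAP cells and 88.3 CPM (1558 UMIs) in Control cells. Idi1 (chr13:8885501-8892451, plus strand) interconverts the isoprene building blocks and stood at 70.1 CPM (1213 UMIs) in SAP cells and 58.6 CPM (1034 UMIs) in Control cells. Fdps (chr3:89093588-89101959, minus strand), which makes farnesyl diphosphate, stood at 72.6 CPM (1257 UMIs) in SAP cells and 76.7 CPM (1352 UMIs) in Control cells. The first 2 were higher in the SAP library beyond counting error, and Fdps was not.

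The 3 enzymes that act after farnesyl diphosphate were lowest. Fdft1 (chr14:63145150-63179578, minus strand), squalene synthase, stood at 29.2 CPM (506 UMIs) in SAP cells and 26.0 CPM (458 UMIs) in Control cells. Sqle (chr15:59315077-59331192, plus strand), which adds oxygen to squalene, stood at 21.3 CPM (369 UMIs) in SAP cells and 20.5 CPM (361 UMIs) in Control cells. Msmo1 (chr8:64718139-64733792, minus strand), which oxidises methyl groups of sterol intermediates for their removal, stood at 55.4 CPM (959 UMIs) in SAP cells and 44.5 CPM (785 UMIs) in Control cells. Of these, the Msmo1 intervals of the libraries did not meet. In the order of levels, Idi1 and Fdps had intervals that met in SAP cells (66.2 to 74.1 and 68.6 to 76.7 CPM), whereas all other neighbours in each library were apart.

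**Figure D1:**
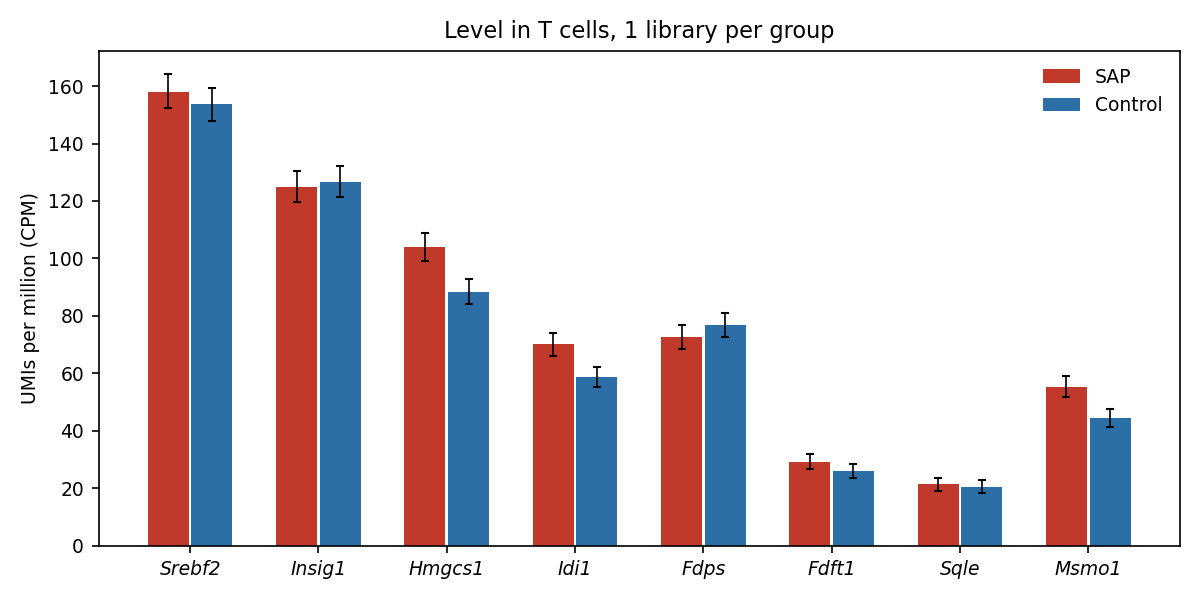
Level of each of the 8 genes in T cells of the SAP library (red) and the Control library (blue), in CPM; bars are the level over all T cells of the library and whiskers the exact 95% counting interval. The whiskers of Hmgcs1, Idi1 and Msmo1 do not meet between the libraries, and those of the other 5 genes do.

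Msmo1 was the 1 gene of the 8 at least 1.2-fold higher in SAP than in Control T cells, at 1.24-fold (1.13 to 1.37), and 0 of the 8 were 1.2-fold lower. Over the 5635 genes the same sizes were met by 10.5% upward and by 2.08% downward. Idi1 was 1.19-fold (1.10 to 1.30) and Hmgcs1 1.18-fold (1.10 to 1.26). These 3 of 8 genes had intervals above 1, as had 28.3% of all genes, and 0 had one below 1, against 12.3%. The ratio was 1.13 (0.99 to 1.28) for Fdft1, 1.04 (0.90 to 1.21) for Sqle, 1.03 (0.98 to 1.09) for Srebf2, 0.99 (0.93 to 1.05) for Insig1 and 0.95 (0.88 to 1.02) for Fdps. On this scale the intervals of these 5 held 1.

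Summed, the 8 genes stood at 635 CPM (624 to 647) in SAP T cells and at 595 CPM (584 to 606) in Control T cells, a ratio of 1.07 (1.04 to 1.10). Their median log2 ratio was 0.11, beside 0.05 for all 5635 genes, and 6 of the 8 were above 1, as were 64.4% of all genes. The direction of the sum turned with the scaling: with TMM factors, which set the bulk of the genes level, the ratio was 0.994, the median log2 ratio of all genes was −0.05, and 5.39% of genes were 1.2-fold higher and 6.74% lower. With TMM factors Msmo1 stood at 1.16 (1.05 to 1.27), Idi1 at 1.11 (1.02 to 1.21) and Hmgcs1 at 1.09 (1.02 to 1.17), while Fdps at 0.881 (0.816 to 0.952) and Insig1 at 0.918 (0.865 to 0.974) had intervals below 1. With median-of-ratios size factors the summed ratio was 1.01, with 6.19% of genes higher and 5.16% lower. Fdps at 0.895 (0.828 to 0.967) and Insig1 at 0.932 (0.878 to 0.990) were again below 1, and Msmo1 stood at 1.18 (1.07 to 1.29). Msmo1 differed from the median gene under each of these scalings by more than its counting error, but all 8 ratios lay within the range of 0.880 to 1.31 that held all but the outer 5% of genes on each side.

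The ratio was also taken at matched depth, since SAP cells were deeper. With cells of both libraries placed in the same 10 bins of UMIs per cell, the summed ratio was 1.08 (1.05 to 1.11). Summed CPM was highest in the shallowest cells, at 877 CPM in the lowest of 10 depth bins in SAP and 883 CPM in that of Control. In the deepest bin it was 591 CPM in SAP cells and 537 CPM in Control cells. Levels in CPM therefore moved with depth within each library. Later values set against the UMIs expected at the cells' depth, and correlations of depth-corrected residuals, hold depth fixed. CPM levels, and ratios of CPM between sets of cells, do not. Thinning evens the UMIs drawn per cell, but does not match the cells' original depth.

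Hmgcs1 was the gene whose SAP over Control ratio moved most with the cells counted. It reached 31 UMIs in a single SAP cell and 17 in a single Control cell, and the 1% of cells richest in it held 25.1% of its UMIs in SAP and 16.8% in Control. Without the 1% of cells with most UMIs of the 8 genes, its ratio was 1.05 (0.97 to 1.13). A small set of cells passed the rule of 2 T cell UMIs but had under 33.3% of their library's median level of T cell genes, 218 SAP cells and 193 Control cells. Hmgcs1 stood at 212 CPM in the 218 SAP cells and at 94.0 CPM in the remaining SAP T cells (2.26-fold, 1.99 to 2.55). In Control it stood at 100 CPM in the 193 cells and 87.6 CPM in the remaining T cells (1.14-fold, 0.92 to 1.40), an interval that held 1.

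Fdft1 was split in both libraries. It stood at 70.7 CPM in these SAP cells and 25.4 CPM in the remaining ones (2.78-fold, 2.22 to 3.46). In Control it stood at 44.5 CPM in these cells and 24.9 CPM in the remaining ones (1.79-fold, 1.28 to 2.45). Fdps went the other way, with 11.7 CPM in these SAP cells and 78.2 CPM in the remaining ones, and 9.11 CPM in these Control cells and 80.7 CPM in the remaining ones. Other cell types' genes moved with these cells. Their epithelial genes summed to 1242 CPM in SAP and 937 CPM in Control, their B and plasma cell genes to 89.9 CPM in SAP and 14183 CPM in Control, of which 1 cell held 80.2% in SAP and 56.4% in Control, and their cycling genes to 986 CPM in SAP and 624 CPM in Control. Of the 11 epithelial genes, 2 were at 0 in SAP and 5 in Control, and of the 9 B and plasma cell genes 4 were at 0 in SAP and 1 in Control. The epithelial list was not raised evenly, since Epcam went the other way. Epcam stood at 30.2 CPM in these SAP cells and 75.2 CPM in the remaining ones, and at 19.2 CPM in these Control cells and 75.7 CPM in the remaining ones. The part of these signals in the split was not tested. Without them the ratio of SAP over Control was 1.07 (1.0 to 1.15) for Hmgcs1, 1.02 (0.89 to 1.17) for Fdft1, 1.21 (1.11 to 1.31) for Idi1 and 1.24 (1.12 to 1.37) for Msmo1. The Msmo1 and Idi1 ratios were thus as large without these cells, and those of Hmgcs1 and Fdft1 were smaller.

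The share of cells with at least 1 UMI followed the levels. It was 40.9% for Srebf2 in SAP cells and 36.6% in Control cells, and 7.0% for Sqle in SAP cells and 6.08% in Control cells. Thinned to 1000 UMIs per cell, which left out 400 SAP cells and 414 Control cells, Srebf2 was seen in 15.8% of SAP and 14.9% of Control cells. Msmo1 was seen in 5.06% (4.43% to 5.76%) of SAP and 4.26% (3.71% to 4.87%) of Control cells, whose intervals met, and Sqle in 2.38% of both. Animal cells in general use these genes, so no cell type here could serve as a background for free RNA.

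Genes of the rest of the pathway were read from lists. Of 17 other synthesis genes, 12 passed the limit on low values, 2 were at least 1.2-fold higher in SAP, against 10.5% of all genes, and 0 lower, against 2.08%. Their median log2 ratio was 0.10, beside 0.05 for all genes. These 2 were Cyp51, which removes a methyl group from lanosterol, at 107 CPM (1858 UMIs) in SAP and 86.7 CPM (1529 UMIs) in Control (1.24-fold, 1.16 to 1.33), and Acat2, which makes acetoacetyl-CoA, at 23.7 CPM (410 UMIs) in SAP and 19.6 CPM (346 UMIs) in Control (1.21-fold, 1.04 to 1.40). Without the cells of few T cell UMIs, Cyp51 was at 99.3 CPM in SAP and 85.1 CPM in Control (1.17-fold, 1.09 to 1.25) and Acat2 at 1.14-fold (0.97 to 1.33), both under 1.2-fold. The lowest of this list was Sc5d, a late-step desaturase, at 43.0 CPM (744 UMIs) in SAP and 47.9 CPM (845 UMIs) in Control (0.90-fold, 0.81 to 0.99).

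Of 13 uptake and transport genes, 8 passed the limit, with a median log2 ratio of 0.06. Npc2, which carries cholesterol out of lysosomes, stood at 240 CPM in SAP and 244 CPM in Control (0.99-fold, 0.94 to 1.03). Of 8 regulators of SREBP, 4 passed and 0 met 1.2-fold in either direction (median log2 ratio 0.00), and of 8 efflux and esterification genes 3 passed and 0 met it (median 0.04). The lowest regulator was Srebf1, the sister factor of fatty acid synthesis, at 31.1 CPM (539 UMIs) in SAP and 34.7 CPM (612 UMIs) in Control (0.90-fold, 0.80 to 1.01). Mvk, mevalonate kinase, was the next lowest synthesis gene, at 24.9 CPM (431 UMIs) in SAP and 26.6 CPM (469 UMIs) in Control (0.94-fold, 0.82 to 1.07). Other synthesis ratios were 1.19 for Erg28, 1.11 for Ggps1, 1.08 for Ebp, 1.06 for Dhcr7, 1.0 for Lbr and 0.97 for Pmvk. Other uptake and transport ratios were 1.15 for Npc1, 1.05 for Gramd1b, 1.04 for Lipa, 1.04 for Stard4 and 0.97 for Gramd1a. Among regulators and efflux genes they ran between 0.96 for Nr1h2 and 1.06 for Mbtps1 and Soat1, with Mylip at 1.05, Abcg1 at 1.03 and Soat2 at 1.03. Intervals above 1 were found for 5 of the 12 synthesis genes, against 28.3% of all genes. Summed over these lists the ratio was 1.04 (1.03 to 1.06), and it turned to 0.970 (0.954 to 0.985) with TMM factors.

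**Figure D2:**
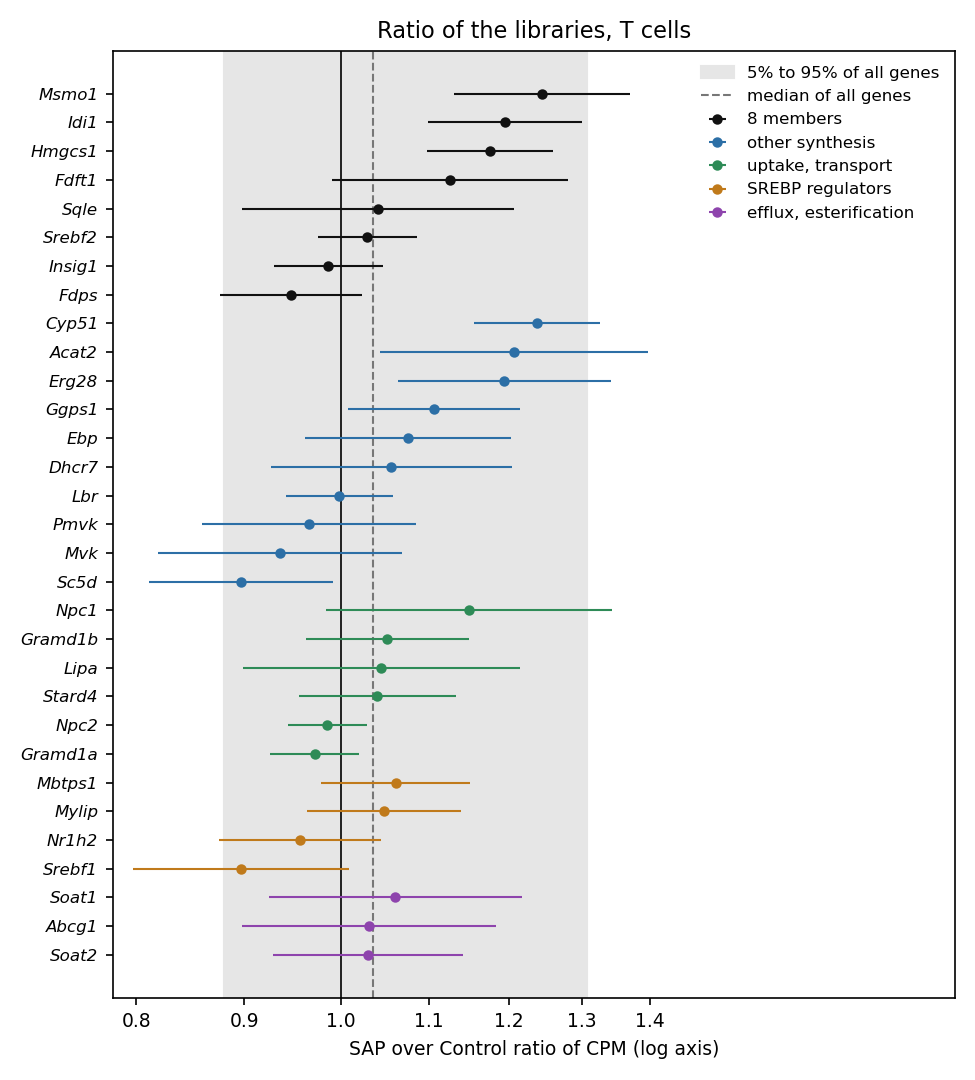
Ratio of CPM in SAP over Control T cells (log axis) for the 8 genes and for genes of 4 sterol lists that passed the limit on low values; points are ratios, bars exact 95% counting intervals, the grey band the central 90% and the dashed line the median of all 5635 genes. Msmo1 and Cyp51, both at 1.24, stand highest among the points shown, and all points lie inside the band.

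Over single cells, the 8 genes varied together. In both libraries a cell with a UMI of 1 of them held more UMIs of the others than cells of its depth did. The expected UMIs were taken from the mean rate in the same of 10 bins of cells by depth. Over the 56 ordered pairs, the median of observed over expected was 1.24 in SAP and 1.31 in Control cells, and the value exceeded 1 in 55 pairs in SAP and 54 in Control. This measure was not taken over pairs of other genes, so these counts have no background. The correlations below are set against all pairs of genes. The highest was 1.69 in SAP, for Hmgcs1 UMIs in cells with Sqle, and 1.85 in Control, for Idi1 UMIs in cells with Msmo1. The lowest was 0.870 in SAP and 0.908 in Control, for Srebf2 UMIs in cells with Fdft1 in both.

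Srebf2, the regulator, moved least with the rest. The median over pairs with Srebf2 was 1.08 in SAP and 1.10 in Control, and over pairs without it 1.32 in SAP and 1.39 in Control. The other 7 genes were at 1.09 (1.06 to 1.13) times their expected UMIs in the 1914 SAP cells with a Srebf2 UMI and at 1.12 (1.08 to 1.16) in the 1935 Control cells with one. Around Msmo1 the excess was larger, at 1.32 (1.27 to 1.37) in 703 SAP cells and 1.47 (1.40 to 1.53) in 616 Control cells. In CPM, the other 7 genes stood at 744 in SAP cells with Msmo1 and 538 in SAP cells without it, and at 790 in Control cells with Msmo1 and 511 in Control cells without it. Between these ends lay Fdft1, at 1.15 in SAP and 1.2 in Control, and Fdps, at 1.2 in SAP and 1.27 in Control. Insig1 was at 1.2 in SAP and 1.23 in Control, Hmgcs1 at 1.21 in SAP and 1.25 in Control, and Idi1 at 1.29 in SAP and 1.36 in Control. Sqle was at 1.37 (1.30 to 1.45) in SAP and 1.36 (1.28 to 1.44) in Control. On this measure Sqle, Msmo1 and Idi1 stood highest, while Fdft1, which also acts after farnesyl diphosphate, stood lower. The correlations below place Sqle lower.

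**Figure D3:**
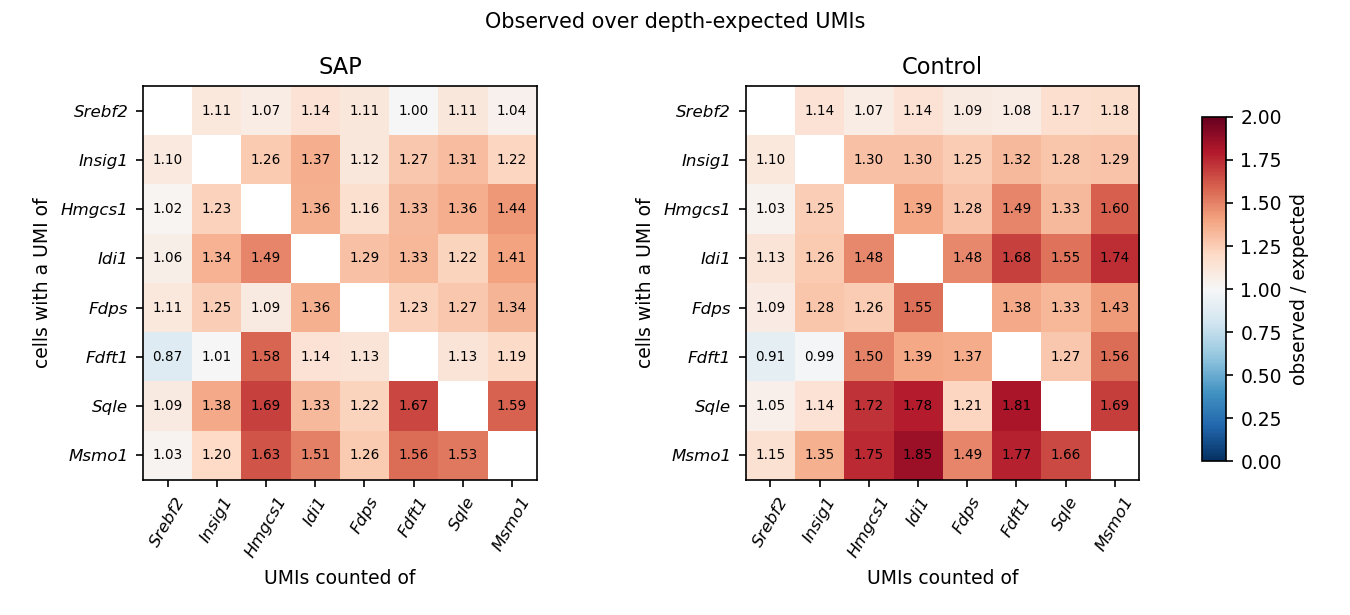
Observed over depth-expected UMIs of the gene in the column, in cells with a UMI of the gene in the row, for SAP T cells (left, 4685 cells) and Control T cells (right, 5293 cells). Pairs among the enzymes run from 1.09 to 1.69 in SAP and from 1.21 to 1.85 in Control. The row and column of Srebf2 run from 0.870 to 1.14 in SAP and from 0.908 to 1.18 in Control.

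The correlation of depth-corrected residuals was small for single pairs. The median Pearson r over the 28 pairs was 0.061 in 4685 SAP cells (range 0.014 to 0.162) and 0.065 in 5293 Control cells (range 0.009 to 0.155). Over all 15873795 pairs of genes the median was 0.002 in SAP and 0.002 in Control, with the central 90% from −0.047 to 0.047 in SAP and from −0.038 to 0.042 in Control. An r of at least 0.03 in both libraries, a limit chosen after the values were seen, was met by 24 of the 28 pairs and by 5.47% of all pairs. Cells of a library share its preparation and depth, so these values describe the 2 libraries and carry no p-value.

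Set against all other genes, most of the 8 were near the top of the ranking for likeness to the remaining 7. Of 5627 other genes, 0 in SAP and 0 in Control had a higher r with the other 7 than Idi1. The number was 0 in SAP and 2 in Control for Hmgcs1, 1 in SAP and 1 in Control for Msmo1, 1 in SAP and 7 in Control for Insig1, and 5 in SAP and 6 in Control for Fdps. Fewer than 10 genes thus stood above each of these 5 genes. For Sqle the numbers were 14 in SAP and 45 in Control, for Fdft1 62 in SAP and 60 in Control, and for Srebf2 59 in SAP and 89 in Control. The summed genes also varied more between cells than counting gives. Their variance was 2.05 times the Poisson value in SAP and 1.94 times in Control. The median single gene stood at 1.19 in SAP and 1.17 in Control, but the sum holds more UMIs, so these are not like measures. Taken singly, the 8 genes ran from 1.14 for Sqle to 1.81 for Hmgcs1 in SAP. In Control they ran from 1.17 for Sqle to 1.55 for Hmgcs1. The mean was 2.35 UMIs per SAP cell and 1.98 per Control cell, with 24.1% of SAP and 27.7% of Control cells at 0 and 14.0% of SAP and 10.8% of Control cells at 5 or more.

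Among the genes outside the 8 that were most like their sum was Cyp51, an enzyme of the same pathway. By a rule set in processing, 5184 genes were ranked by the lower of their 2 r values with the summed 8 genes. Cyp51 was at rank 4 (r = 0.174 in SAP, 0.160 in Control), where the median gene had 0.012 in SAP and 0.014 in Control. The first 10 also held Actb (0.163 in SAP, 0.214 in Control), Cd7, Cd8a, Cd3g, Ccnd2, Ucp2 and Scd2, a desaturase of fatty acid synthesis. Actb encodes actin, Cd7 and Cd3g are T cell surface genes, Cd8a encodes a chain of CD8, Ccnd2 a D-type cyclin and Ucp2 a carrier of the mitochondrial membrane.

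Other genes of the pathway were ranked less evenly. Dhcr7 and Sc5d, enzymes of the last steps, were at ranks 22 and 35. The transport genes Npc1 and Npc2, the branch enzyme Ggps1 and the efflux pump Abcg1 were at ranks 3558, 3299, 3995 and 4162. Of the 12 synthesis genes ranked, 5 were in the first 100 and 11 had r above 0 in both libraries, as had 2978 of all 5184 genes; of the 8 uptake and transport genes, 6 were above 0 in both. In T cells without those of few T cell UMIs, Cyp51 was at rank 3, as it was among the cells of both CD8 gates, and in the Trdc gate it was at rank 4.

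**Figure D4:**
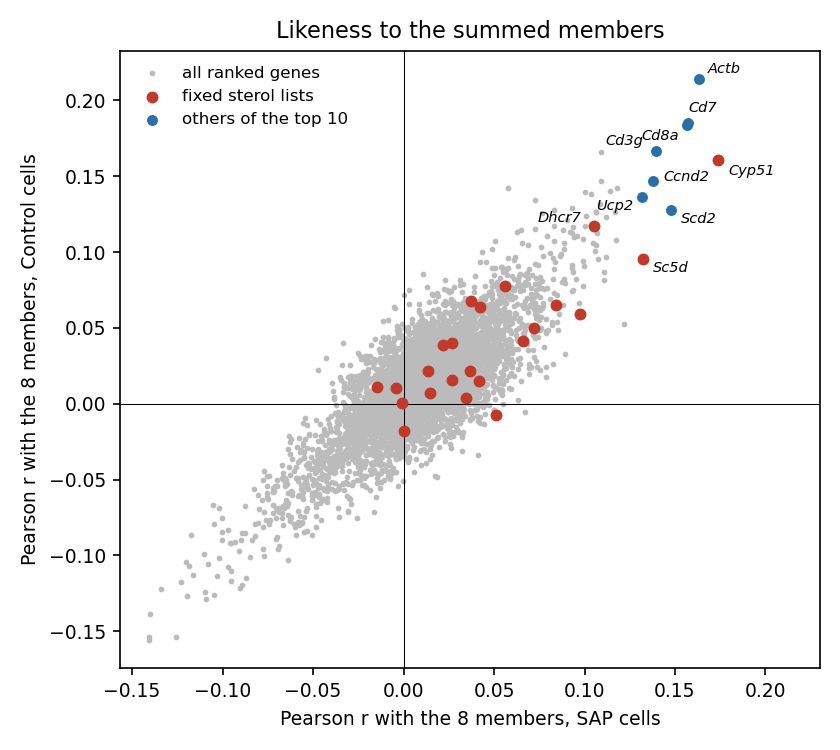
Pearson r of each gene's depth-corrected residual with the sum of the 8 genes, in SAP T cells (horizontal) and Control T cells (vertical), for ranked genes (grey), genes of the sterol lists (red) and others of the first 10 (blue). Cyp51 lies at the upper right, at r of 0.160 or more in both libraries, and most transport and efflux genes lie in the grey cloud.

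T cells were gated by UMIs of Trdc (a chain of the γδ receptor), Cd8b1 and Cd8a (chains of CD8) and Cd4, in gates that did not overlap. A missing UMI does not show that a gene is off, so a gate describes counts and is not a cell type. The Trdc gate held 2010 SAP and 2226 Control cells, the Cd8a only gate 1187 SAP and 1445 Control cells, the Cd4 gate 165 SAP and 186 Control cells, and the Cd8b1 gate 543 SAP and 538 Control cells. The Trdc and Cd8b1 gates allowed a Cd8a UMI beside their own gene, and the Cd8a only and Cd4 gates allowed no other gate gene. Another 655 SAP and 767 Control cells had none of the 4. Cells with any other mix of gate genes, 125 in SAP and 131 in Control, were left out. Cells with none were shallower, with a median of 2244 UMIs in SAP and 2401 in Control, while the other gates had medians of 3458 to 3623.5 UMIs in SAP and 3144 to 3358 in Control.

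The summed 8 genes were near equal in the Trdc, Cd8a only and Cd8b1 gates in SAP and less even in Control. They were lower in the Cd4 gate and in cells with none of the 4 genes in both libraries. In SAP cells they stood at 656 CPM in the Trdc gate, 676 in Cd8a only, 497 in Cd4, 494 in cells with none and 650 in Cd8b1. In Control cells they stood at 616 CPM in the Trdc gate, 637 in Cd8a only, 482 in Cd4, 484 in cells with none and 577 in Cd8b1. Over the UMIs expected at the cells' depth, the Cd4 gate was at 0.785 in SAP and 0.827 in Control, and cells with none at 0.751 in SAP and 0.782 in Control. The Trdc gate was at 1.04 in both libraries, the Cd8a only gate at 1.07 in both, and the Cd8b1 gate at 1.02 in SAP and 0.982 in Control. As a ratio of CPM to Cd8b1, Cd8a only was at 1.04 (0.976 to 1.11) in SAP and 1.10 (1.03 to 1.18) in Control. The Trdc gate was at 1.01 (0.951 to 1.07) in SAP and 1.07 (0.999 to 1.14) in Control.

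**Figure D5:**
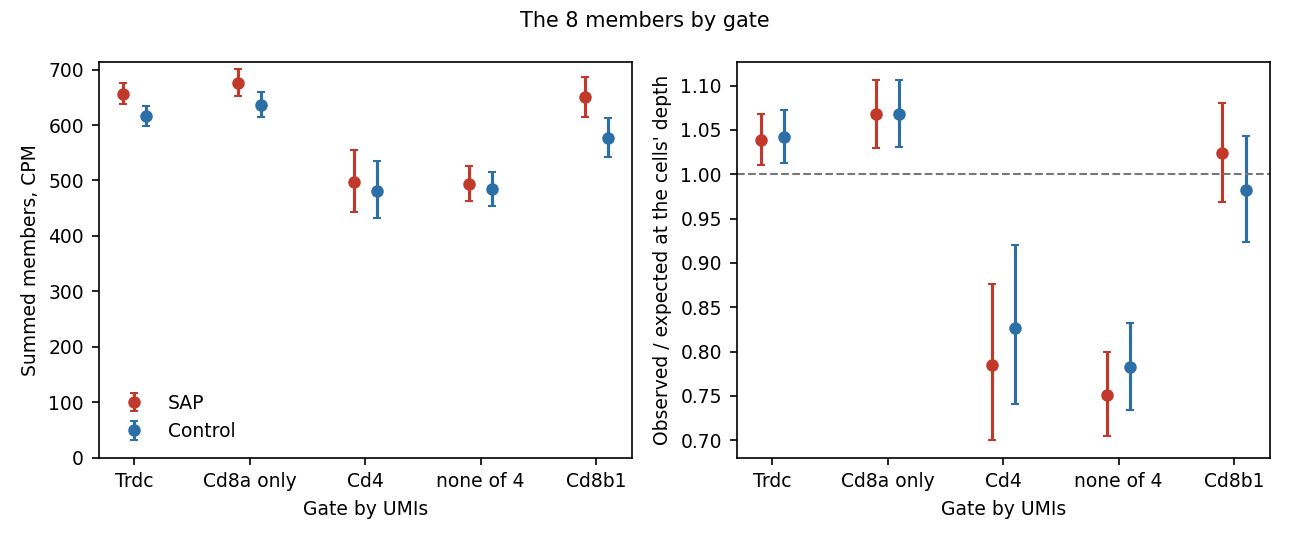
Summed level of the 8 genes by gate in SAP (red) and Control (blue) T cells, in CPM (left) and as observed over expected UMIs at the cells' depth (right); whiskers are exact 95% counting intervals. The Cd4 gate and cells with none of the 4 gate genes lie near 490 CPM and below 0.85, under the 3 other gates.

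Against the Cd8b1 gate, the Cd4 gate had 0.766 times (0.675 to 0.866) the summed level in SAP and 0.834 times (0.736 to 0.944) in Control. At least 1.2-fold lower in both libraries were 3 of the 8 genes, Hmgcs1, Idi1 and Msmo1, as were 16.4% of 4857 genes, and 0 of 8 were higher in both, as were 11.1%. Hmgcs1 had 56.7 CPM in SAP Cd4 cells and 107 CPM in SAP Cd8b1 cells (0.529, 0.361 to 0.756), and 52.7 CPM in Control Cd4 cells and 83.0 CPM in Control Cd8b1 cells (0.635, 0.431 to 0.915). Idi1 had 50.4 CPM in SAP Cd4 cells and 76.6 CPM in SAP Cd8b1 cells (0.658, 0.435 to 0.967), and 37.0 CPM in Control Cd4 cells and 67.4 CPM in Control Cd8b1 cells (0.550, 0.346 to 0.844). For Msmo1 the ratio was 0.789 in SAP and 0.787 in Control, and both intervals held 1. Fdps was 0.487 (0.303 to 0.751) in SAP and 0.844 (0.605 to 1.16) in Control.

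Srebf2 was near 1, at 0.980 in SAP and 1.13 in Control. The median log2 ratio of the 8 genes was −0.47 in SAP and −0.30 in Control, beside −0.03 in SAP and −0.06 in Control over all genes.

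The Cd4 gate was small. Its cycling genes summed to 571 CPM in SAP and 795 CPM in Control, against 475 CPM in SAP and 476 CPM in Control Cd8b1 cells. Its B and plasma cell genes summed to 50.4 CPM in SAP and 11338 CPM in Control, but a single Control cell held 99.4% of the Control UMIs, and without it the value was 72.9 CPM. Without the cells of few T cell UMIs the ratio to Cd8b1 was 0.776 (0.680 to 0.883) in SAP and 0.894 (0.785 to 1.01) in Control. Taken from observed over expected UMIs by depth bin, the ratio was 0.767 (0.676 to 0.867) in SAP and 0.842 (0.743 to 0.953) in Control. With each cell thinned to 1000 UMIs it was 0.858 (0.673 to 1.08) in SAP and 1.06 (0.838 to 1.32) in Control, and both intervals held 1. The point value in Control thus turned with thinning but not with depth bins, and the thinned values rested on few UMIs.

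In the other gates fewer of the 8 genes stood apart from Cd8b1. In the Trdc gate 1 of 8 was at least 1.2-fold higher in both libraries, as were 19.9% of all genes, and 0 of 8 lower, as were 6.55%. That gene was Fdft1, at 1.32 in SAP and 1.27 in Control with both intervals holding 1. In the Cd8a only gate 1 of 8 was higher in both, against 20.6% of all genes, and 0 lower, against 7.50%; it was Fdft1 again, at 1.36 in SAP and 1.46 in Control. These shares of the 8 were under or near the background. Srebf2 had intervals above 1 in Control, at 1.24 (1.075 to 1.43) in the Trdc gate and 1.28 (1.11 to 1.49) in Cd8a only. In SAP it was at 1.05 in the Trdc gate and 1.10 in Cd8a only, with both intervals holding 1.

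In cells with none of the 4 gate genes, 3 of 8 were lower in both, against 13.5% of all genes, and 1 higher, against 17.7%. Fdps was 0.461 (0.343 to 0.614) in SAP and 0.486 (0.371 to 0.634) in Control, Msmo1 was 0.592 (0.439 to 0.794) in SAP and 0.526 (0.362 to 0.756) in Control, and Idi1 was 0.687 (0.530 to 0.886) in SAP and 0.721 (0.548 to 0.945) in Control. Fdft1 was higher, at 1.26 in SAP and 1.41 in Control. These cells had the most epithelial signal of the 5 sets, 480 CPM in SAP and 289 CPM in Control, against 79.6 CPM in SAP and 70.6 CPM in Control Cd8b1 cells, and its part in these ratios was not tested.

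The SAP over Control ratio of the summed genes was 1.07 (1.02 to 1.11) in the Trdc gate, 1.06 (1.01 to 1.12) in Cd8a only, 1.03 (0.88 to 1.21) in Cd4, 1.02 (0.93 to 1.12) in cells with none and 1.13 (1.04 to 1.22) in Cd8b1. Msmo1 was above 1 in each, at 1.15 (1.0 to 1.33) in the Trdc gate, 1.27 (1.06 to 1.53) in Cd8a only, 1.41 (0.81 to 2.49) in Cd4, 1.59 (1.09 to 2.33) in cells with none and 1.41 (1.06 to 1.88) in Cd8b1. At least 1.2-fold higher in SAP were 2 of 8 genes in the Trdc gate (13.1% of all genes), 1 of 8 in Cd8a only (16.2%), 3 of the 6 that passed the limit in Cd4 (25.2%), 2 of the 7 that passed in cells with none (26.9%) and 2 of 8 in Cd8b1 (22.4%). At least 1.2-fold lower in SAP was 1 gene in the Cd4 gate (14.8% of all genes) and 0 in the Trdc (2.74%), Cd8a only (5.14%), none (16.4%) and Cd8b1 (12.9%) sets. That gene was Fdps, with 37.8 CPM in SAP and 74.1 CPM in Control from 24 SAP and 52 Control UMIs. Differences between gates in these ratios were not tested.

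Cells with a UMI of 6 genes of division and activation were set against the UMIs expected at their depth. In cells with Mki67, a marker of division, the summed 8 genes were at 0.910 (0.826 to 1.001) in 128 SAP cells and at 1.30 (1.19 to 1.42) in 135 Control cells. The Control values were highest for Fdps, at 1.98 (1.64 to 2.37), and Idi1, at 1.71 (1.34 to 2.15), while in SAP Fdps was at 1.03 (0.778 to 1.33) and Idi1 at 1.13 (0.853 to 1.46). The SAP value was highest for Sqle, at 1.70 (1.08 to 2.55) from 23 UMIs. It was lowest for Fdft1, at 0.660 (0.391 to 1.04), and Srebf2, at 0.712 (0.559 to 0.893). Without the cells of few T cell UMIs the sum was at 0.886 (0.80 to 0.979) in SAP and 1.26 (1.15 to 1.37) in Control. The point values of the libraries thus stood on opposite sides of 1 in these cells, with no replicate to set this against. The SAP interval held 1 over all T cells, with 20 depth bins (0.840 to 1.02) and without doublet removal (0.858 to 1.03).

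Activation genes went with small departures. In cells with Ifng, which encodes interferon gamma, the sum was at 1.06 (1.02 to 1.10) in SAP and 1.09 (1.05 to 1.14) in Control, and in cells with Xcl1, a chemokine, at 1.03 (0.988 to 1.08) in SAP and 1.04 (0.993 to 1.09) in Control. In cells with Nr4a1, an early gene of receptor signalling, it was at 1.02 in both libraries. In cells with Tnfrsf9, which encodes the co-stimulatory receptor 4-1BB, it was at 0.954 (0.914 to 0.995) in SAP and 0.932 (0.894 to 0.970) in Control, where Insig1 was at 0.900 (0.812 to 0.994) in SAP and 0.830 (0.754 to 0.911) in Control. The directions were the same in both libraries for these 4 genes.

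In cells with Myc, a growth regulator, the sum was at 0.916 (0.863 to 0.971) in 269 SAP cells and 0.973 (0.903 to 1.05) in 225 Control cells. Hmgcs1 stood at 1.49 (1.34 to 1.65) in SAP and 1.39 (1.19 to 1.62) in Control, and Fdft1 at 1.58 (1.30 to 1.90) in SAP and 1.40 (1.04 to 1.85) in Control. Srebf2 went the other way, at 0.641 (0.549 to 0.743) in SAP and 0.735 (0.615 to 0.872) in Control. So did Fdps, at 0.600 (0.481 to 0.739) in SAP and 0.634 (0.491 to 0.805) in Control. Without the cells of few T cell UMIs the sum was at 0.930 (0.861 to 1.002) in SAP and 1.07 (0.983 to 1.16) in Control, and both intervals held 1. Hmgcs1 was then at 1.09 in SAP and 1.32 in Control, and Fdft1 at 0.919 in SAP and 0.866 in Control, so the Fdft1 excess with Myc was not seen in the remaining T cells. In the same cells Srebf2 was at 0.854 in SAP and 0.894 in Control, and Fdps at 0.918 in SAP and 0.814 in Control.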

How the data were processed

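Gene counts were read from the deposited matrices of 2 10x libraries (3′ kit, version 3), whose values are whole-number UMI counts made by the authors with Cell Ranger 7.1.0, per the file headers. The submitters' processing notes name mm10 and Seurat; the sources used here do not give the annotation version or how reads that map to several places were treated. Barcodes were kept with at least 500 UMIs, 300 genes and at most 10% mitochondrial UMIs. Scrublet in scanpy 1.11.5 marked 1 barcode per library by its own threshold, so the highest scores were removed at 0.8% per 1000 barcodes, 202 in SAP and 257 in Control. T cells had at least 2 UMIs over 11 T cell genes.

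CPM are UMI sums of the deposited counts per 1e+06 UMIs of the same cells, computed here. Ratios carry exact conditional binomial 95% intervals, levels exact Poisson intervals and shares exact Clopper-Pearson intervals (numpy 2.4.6, scipy 1.17.1). Expected UMIs came from the rate in the same of 10 depth bins, and correlations used residuals from the same expectation. TMM factors came from edgeR 4.0.16 and size factors from DESeq2 1.42.0 in R 4.3.3, used for scaling only, with no test, since each group is 1 library. The ratio and co-variation steps were tested on simulated data.

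All 8 genes were named, with list genes that passed the limit on low values, and the 10 genes most like the sum, leaving out mitochondrial, ribosomal protein, Gm-numbered and Rik genes. The 8 genes and the lists were chosen with earlier results of these data known. Loci are from GENCODE and promoters from RefSeq, both GRCm38. Some list genes are not reported here and are left out of the plots, though they count in the list totals.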

Additional observations from a re-analysis of the deposited data

How the results depend on the processing

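The summed ratio of SAP over Control T cells, 1.07, was 0.994 with TMM factors and 1.01 with size factors. The number of the 8 genes at least 1.2-fold higher, 1 beside 10.5% of all genes, was 0 with TMM factors (5.39% of all genes) and with size factors (6.19%). It was 2 with all deposited barcodes (13.5% of all genes), with all retained cells (13.5%) and with no cycling cells (7.51%). It was also 2 without the 1% richest cells (6.59%) and without cells of few T cell UMIs (6.36%). With 2 UMIs per gate the Cd4 over Cd8b1 ratio was 0.662 in SAP and 0.944 in Control, and Cd8a only over Cd8b1 was 1.199 in Control. With cells thinned, Trdc over Cd8b1 was 1.17 and Cd4 over Cd8b1 1.055 in Control. Co-variation over all pairs, 1.21 in SAP and 1.26 in Control, was 1.18 in SAP and 1.22 in Control without depth bins, 1.28 in SAP and 1.37 in Control among Cd8b1 cells, 1.19 in SAP and 1.23 in Control among Trdc cells, 1.25 in SAP and 1.28 in Control without cycling cells, 1.19 in SAP and 1.21 in Control without the 1% richest cells, and 1.23 in SAP and 1.28 in Control without cells of few T cell UMIs. Without those last cells the sum in Control cells with Myc was 1.07 and the other pathway genes were at 1.06, and with TMM factors these genes were at 0.970. The cause was not tested. Some alternatives, such as leaving out cells of few T cell UMIs, were chosen after seeing the data. Of the main values under all settings, 100 stayed on their side within their error, 26 moved and 3 turned.

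Intervals cover counting error only, and a difference between libraries cannot be told apart from one between groups. No paired analysis was possible because each group is 1 library and the labels give no replicate numbers. Genes near 20 CPM, such as Sqle, had under 20 UMIs in each library's Cd4 gate.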

Other observations

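Fatty acid synthesis genes, which the sister factor of SREBP2 controls, were read from a list. Of 11 listed, 6 passed the limit on low values and 0 were 1.2-fold higher or lower in SAP T cells, with a median log2 ratio of 0.11. Scd2, which puts a double bond into fatty acids, stood at 44.0 CPM in SAP and 37.4 CPM in Control (1.18-fold, 1.06 to 1.31). Elovl5, an elongase, was at 1.10-fold (1.01 to 1.19), Acss2, which makes acetyl-CoA from acetate, at 1.14-fold (0.99 to 1.31) and Acly, which makes it from citrate, at 1.06-fold (0.98 to 1.15). Fasn, the synthase itself, was at 0.96-fold (0.86 to 1.08) and Elovl6 at 0.98-fold (0.90 to 1.07). Over cells, 2 of the 6, Scd2 and Fasn, were among the 100 genes most like the summed sterol genes, and 4 had r above 0 in both libraries, as had 2978 of all 5184 ranked genes. Elovl6, Acss2 and Elovl5 were at ranks 2777, 3867 and 4265, with r below 0 in both libraries for Acss2 and Elovl5.

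Glycolysis genes were set beside them, with 12 of 15 past the limit. Of these, 0 were 1.2-fold higher or lower, the median log2 ratio was −0.03, and 0 were among the 100 genes most like the sterol sum. Of the 11 T cell genes, 4 were among these 100.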
